A study of Zea mays with 4 samples.

Results

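Total RNA of rea1 mutant endosperm was set against total RNA of wild-type endosperm of maize (Zea mays), both taken at 15 days after pollination. These are 2 of the 4 libraries of the series, the other two being polysome-bound RNA of the same genotypes, that is, RNA spun down together with ribosomes through dense sucrose. Each genotype had 1 total RNA library, and each library gave a value for the same 29642 loci, all of which are members here. The allele, the mutated gene, the inbred background and the number of kernels or ears pooled were not stated in the labels. With 1 library on each side, every difference below compares these libraries, has no replicate check and carries no test.

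Endosperm is the tissue of the kernel that fills with starch and storage protein and feeds the germinating seedling. During filling, a few families of storage protein genes give a large part of its messenger RNA. The largest of these families, the zeins, have many near-identical gene copies, some of them in tandem arrays. In yeast, the protein named Rea1, or midasin, is an AAA ATPase that releases assembly factors from the maturing large ribosomal subunit. The deposited values name loci by position on the genome B73 RefGen_v3 only, so no locus is assigned to any of these genes, the endosperm label was not checked against marker genes, and no sequence is shown.

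Values were FPKM, fragments scaled to the length of the locus and to the size of the library. FPKM is relative to its own library, and a sum of FPKM weights loci by transcripts rather than by reads. Summed FPKM was 872920.5 in rea1 and 977156 in wild type. Of the 29642 loci, 26748 were above 0 in rea1 and 25826 in wild type, and 1524 were listed at 0 in both. Read totals were not given, so the depth behind a value is unknown. Averaged over all 4 libraries, 17682 loci reached 1 FPKM, called tested loci below. The remaining 11960 held 0.539% of the summed FPKM in rea1 and 0.291% in wild type.

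The wild-type library was dominated by a handful of loci, and the rea1 library was not. In wild type, the 14 most abundant loci held 50% of the summed FPKM. In rea1, 341 loci were needed for the same share. For 90% of the sum the numbers were 3077 and 5819. Loci at 10000 FPKM or more numbered 15 in wild type and 4 in rea1. Below that level the order was the other way round. Loci at 1000 FPKM or more numbered 105 in rea1 and 59 in wild type, those at 100 FPKM or more 1231 and 658, and those at 10 FPKM or more 8913 and 6427. Loci at 100 to 1000 FPKM in their own library held 35.1% of the sum in rea1 and 13.5% in wild type, while loci at 1000 FPKM or more held 33.3% and 65.4%.

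**Figure D1:**
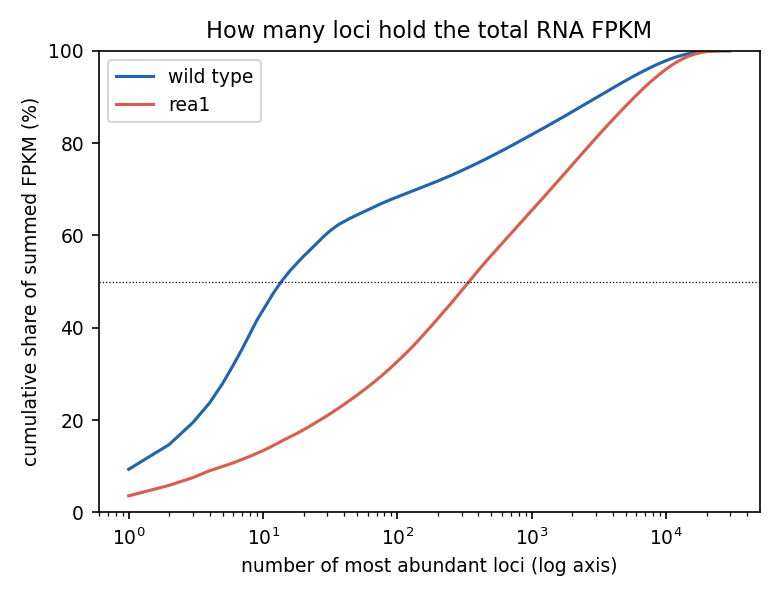
Cumulative share of summed FPKM (percent, y axis) held by the most abundant loci (number of loci, log axis, x axis), for the wild-type (blue) and rea1 (red) total RNA libraries. The dotted line marks 50%, which wild type reached with 14 loci and rea1 with 341.

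Locus by locus, the losses were concentrated and the gains were spread out. FPKM was lower in rea1 at 6156 loci, by 492874 FPKM in all, and the 10 largest losses made up 69.2% of that amount and the 100 largest 97.9%. FPKM was higher in rea1 at 21962 loci, by 388639 FPKM in all. The 10 largest gains made up 12.97% of that amount and the 100 largest 31.4%. Without the single locus on chromosome 7 that is listed at 0 in wild type, the 10 largest gains made up 5.77%.

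Among the 10 most abundant loci of each library, 7 were shared. The most abundant locus of wild-type total RNA, at 18865424 to 18866146 of chromosome 7, was at 91299 FPKM in wild type against 14589.5 in rea1. It alone held 9.34% of the wild-type sum and 1.67% of the rea1 sum, and both polysome libraries had it listed at 0, which can be a failed estimate. The second, at 21334901 to 21335970 of chromosome 4, was at 52408 FPKM in wild type against 5166 in rea1. This 10.1-fold difference was the widest of the 10, at a locus with no other abundant locus within 500 kb. The third, at 5535743 to 5536690 of chromosome 4, was at 46410.1 FPKM in wild type against 5558 in rea1.

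The fifth and the sixth most abundant loci of wild type differed less. The locus at 183991961 to 183993036 of chromosome 2 was at 41136 FPKM in wild type against 12994 in rea1, a 3.17-fold difference. The locus at 44541825 to 44542774 of chromosome 6 was at 38973 FPKM in wild type against 19894 in rea1, a 1.96-fold difference. In rea1 these became the fourth and the second most abundant loci. All 10 of the most abundant wild-type loci were lower in rea1, by between 1.96-fold and 10.1-fold, and all were 723 to 1317 bp long. Of all tested loci, 15.1% were lower in rea1. The 10 were picked on their wild-type values, a choice that favours lower values in rea1, so this count is a description.

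The rea1 library held 3 loci in its 10 most abundant that were outside the wild-type 10. The locus at 120233940 to 120236057 of chromosome 7 was the most abundant of rea1 total RNA at 31354 FPKM while wild-type total RNA had it listed at 0. On polysomes it was at 28979 FPKM in rea1 against 34692 in wild type. An exact 0 for a locus this abundant in the other 3 libraries can be a failed estimate, so no fold is given for it. The locus at 197301249 to 197304338 of chromosome 1 was at 6642 FPKM in rea1 against 4531 in wild type, and the locus at 178503667 to 178505233 of chromosome 1 at 5749 and 5361 FPKM. Each stood higher in the rea1 ranking, at the seventh and eighth places against the 28th and the 23rd in wild type, with values that differed by less than 2-fold.

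Much of the lost FPKM came from groups of neighbouring loci. Averaged over the 4 libraries, 70 loci reached 1000 FPKM, and 26 of them lay within 500 kb of another, in 6 groups. These 26 held 44.3% of the wild-type sum and 12.1% of the rea1 sum. At least 2-fold lower in rea1 were 25 of the 26, where 338 of all 17682 tested loci, or 1.91%, were that much lower. In bulk tissue, fewer cells of a type and less RNA per cell cannot be told apart. The abundance limit and the grouping used all 4 libraries, and these loci had been described before from the same data, so the counts are a description.

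The group of 4 loci at 18.76 to 18.88 Mb of chromosome 7 gave the largest loss of FPKM of the 6 groups. Its loci were of nearly one length, 723 to 726 bp, and held 20.1% of the wild-type sum and 3.90% of the rea1 sum. The locus at 18755936 was at 41754 FPKM in wild type against 6812 in rea1, and that at 18779575 at 34546 and 8135 FPKM. The locus at 18877460 was at 28407.5 FPKM in wild type against 4501 in rea1. With the most abundant locus at 18865424, the 4 log2 ratios on the log2(FPKM + 1) scale lay between -2.66 and -2.09. Within 100 kb of the group lay 3 further tested loci with a mean below 1000 FPKM. All 3 were at least 2-fold lower as well. They were at 227 FPKM in wild type against 94.2 in rea1 at 18789875, 983 and 57.5 FPKM at 18867732, and 1712 and 277 FPKM at 18954749. These 7 loci followed each other with no other tested locus between them.

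The 13 loci at 5.08 to 5.56 Mb of chromosome 4 fell into 2 blocks that differed in size of change. The first block held 8 loci in 97.4 kb, from 5079765 to 5177135, and its log2 ratios lay between -3.27 and -1.35 with a median of -2.01. The second block held 5 loci in 40.1 kb, from 5521259 to 5561370, and its log2 ratios lay between -3.06 and -2.68 with a median of -2.76. Summed FPKM was 46675 in wild type and 12279 in rea1 for the first block, a 3.80-fold difference, and 89635 and 11934 for the second, a 7.51-fold difference. Every locus of the second block was thus lower by a greater factor than 6 of the 8 loci of the first. The exceptions were the loci at 5079765, with 175 FPKM in wild type against 18.1 in rea1, and at 5083079, with 866 and 88.9 FPKM, the least abundant of the group in total RNA.

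Between these blocks lay 12 tested entries of ordinary abundance, from 1.22 to 69.3 FPKM in wild type, over a gap of 344 kb. None of the 12 was at least 2-fold lower, 5 were at least 2-fold higher, and the median log2 ratio was 0.84. Over all tested loci 1.91% were that much lower and 26.3% that much higher. Of the 12, 1 was higher and none lower relative to the median locus. Inside or beside the blocks, 3 loci with a mean below 1000 FPKM were at least 2-fold lower. The locus at 5094105 was at 1268 FPKM in wild type against 109 in rea1. The locus at 5141270 was at 853 and 178 FPKM, and the locus at 5594840 at 722 and 154 FPKM. These 3 were the most abundant of the neighbours in wild type, and each was between 807 and 966 bp long.

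The other groups were smaller. At 29.95 to 30.09 Mb of chromosome 4, the locus at 29951761 was at 32120.4 FPKM in wild type against 4935 in rea1, that at 29963321 at 19622 and 3009 FPKM, and that at 30089546 at 7133 and 1199 FPKM. Their log2 ratios were nearly alike, from -2.70 to -2.57. At 161.79 to 162.01 Mb of chromosome 1, the locus at 161790710 was at 10549 FPKM in wild type against 2944 in rea1, and that at 162006911 at 12643 and 1379 FPKM. At 39.09 Mb of chromosome 6, the locus at 39087615 was at 3615 and 209 FPKM, with the lowest log2 ratio of the 26 (-4.11), and that at 39091667 at 4681 and 937 FPKM. The log2 ratios of the chromosome 1 loci were -1.84 and -3.20, so neighbours of near-equal length differed there. Of the chromosome 7 group at 120.21 to 120.24 Mb, the locus at 120206897 was at 9911 FPKM in wild type against 1621 in rea1, beside the locus listed at 0.

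**Figure D2:**
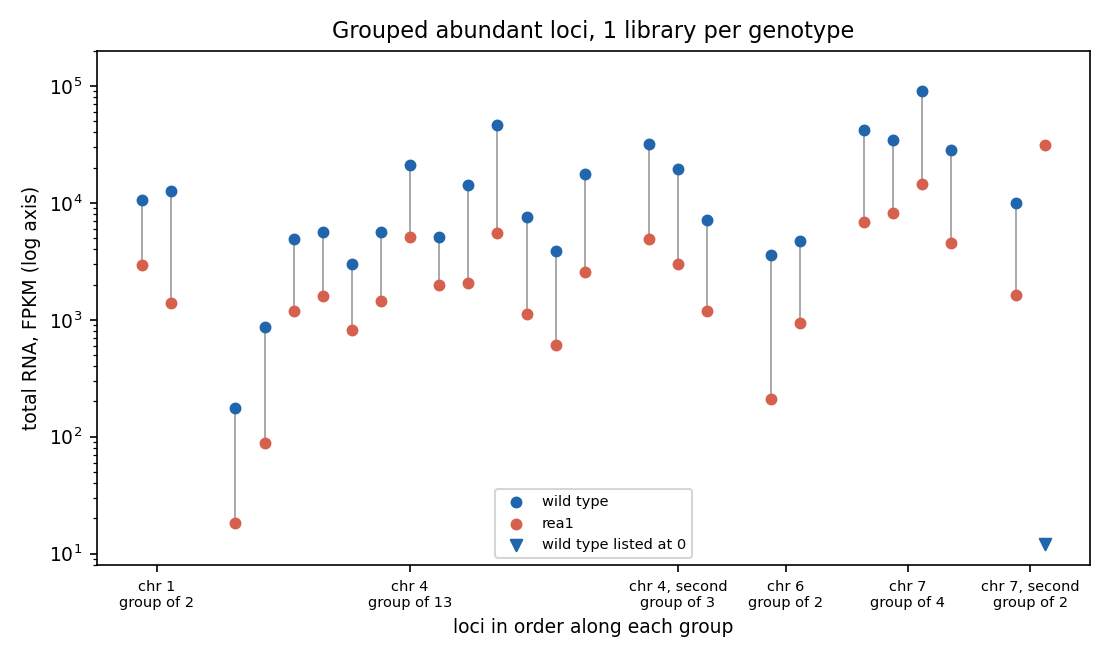
Total RNA FPKM (log axis) of the 26 grouped abundant loci in order along each group, with wild type in blue and rea1 in red, 1 library each, joined by a line for each locus. At 25 loci the rea1 point lies below the wild-type point by at least 2-fold, and at 1 locus of chromosome 7 wild type is listed at 0 (triangle, drawn at the foot of the axis).

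Copies of a gene family can share reads, and how such reads were counted was not stated in the labels. Whether the grouped loci are such copies was not checked. The value of any single locus in a group is to be read with that uncertainty. Across the 6 groups, 26 tested neighbours with a mean below 1000 FPKM lay within 100 kb. Of these, 7, or 26.9%, were at least 2-fold lower, where 1.91% of all tested loci were. As many, 7, were at least 2-fold higher, where 26.3% of all tested loci were. Relative to the median locus, 8 (30.8%) were lower and 1 higher, where 6.29% and 7.26% of all tested loci were. The lower neighbours lay beside the groups at 161.79 Mb of chromosome 1, 5.08 Mb of chromosome 4 and 18.76 Mb of chromosome 7.

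On polysomes, 5 of the 6 groups were lower in rea1 by smaller factors than in total RNA. The summed FPKM of the chromosome 7 group at 18.76 Mb was 5.76-fold lower in total RNA and 1.43-fold lower on polysomes, with 1 of its 4 loci listed at 0 there. For the chromosome 4 groups the factors were 5.63 and 2.01 at 5.08 Mb, and 6.44 and 2.06 at 29.95 Mb. For the chromosome 1 group they were 5.37 and 2.38, and for the chromosome 6 group 7.24 and 2.59. The sixth, at 120.21 Mb of chromosome 7, went in opposite directions, with sums of 32976 FPKM in rea1 against 9911 in wild type in total RNA and a 1.37-fold lower sum on polysomes. Its total RNA sum rests on the locus listed at 0 in wild type. The differences between the fractions were not tested.

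Outside the groups, the 44 other loci that averaged 1000 FPKM or more went in both directions. At least 2-fold lower in rea1 were 9, which ranged from 212 to 52408 FPKM in wild type, with a median locus length of 1076 bp. At least 2-fold higher were also 9, which ranged from 460.0 to 1053 FPKM in wild type and from 1833 to 4598 FPKM in rea1, with a median locus length of 2894 bp. These loci were chosen for that difference and for their level, so the ranges, which overlap in wild type, are a description. Among all tested loci 26.3% were that much higher and 1.91% that much lower, beside 9 of 44 in each direction here. The counts relative to the median locus were 7 higher and 11 lower. All 9 higher loci were above a ratio of 1 in polysome-bound RNA too, where 72% of all tested loci were, with a median log2 ratio of 0.76. Of the 9 lower loci, 7 were below a ratio of 1 there, where 27.6% of all were, and 2 above it, with a median of -0.29. The remaining 26 loci lay within 2-fold.

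As deposited, most loci of lower abundance had higher FPKM in rea1 by a modest factor, a shift that rescaling to the typical locus removes. Of the 17682 tested loci, 84.8% were higher in rea1 and 15.1% lower, and the median log2 ratio was 0.62, which is 1.54-fold. The middle 50% of log2 ratios ran from 0.24 to 1.03. At least 2-fold higher were 4647 loci (26.3% of the tested), of which 594 (3.36%) passed 4-fold and 99 (0.56%) passed 8-fold. At least 2-fold lower were 338 (1.91%), of which 80 (0.452%) passed 4-fold and 27 (0.153%) passed 8-fold. Many higher loci sat close to the limit: 807 had a log2 ratio between 1.0 and 1.1, and 963 lay just below it, between 0.9 and 1.0.

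Because FPKM is relative, this shift of the median depended on the scaling. It was -0.0078 after median-of-ratios scaling, which brings the median near 0 by design and gave 1171 higher and 1020 lower loci at 2-fold. With equal sums outside the 50 most abundant loci it was -0.15, with 909 higher and 1444 lower. Shares and runs of loci are therefore also given relative to the median locus below, as the log2 ratio minus 0.62. On that footing 1283 loci (7.26% of the tested) were higher and 1113 (6.29%) lower by 2-fold or more, and 15286 lay within 2-fold of the median locus. For comparison, the same range around the median held 16913 of these loci in polysome-bound RNA.

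**Figure D3:**
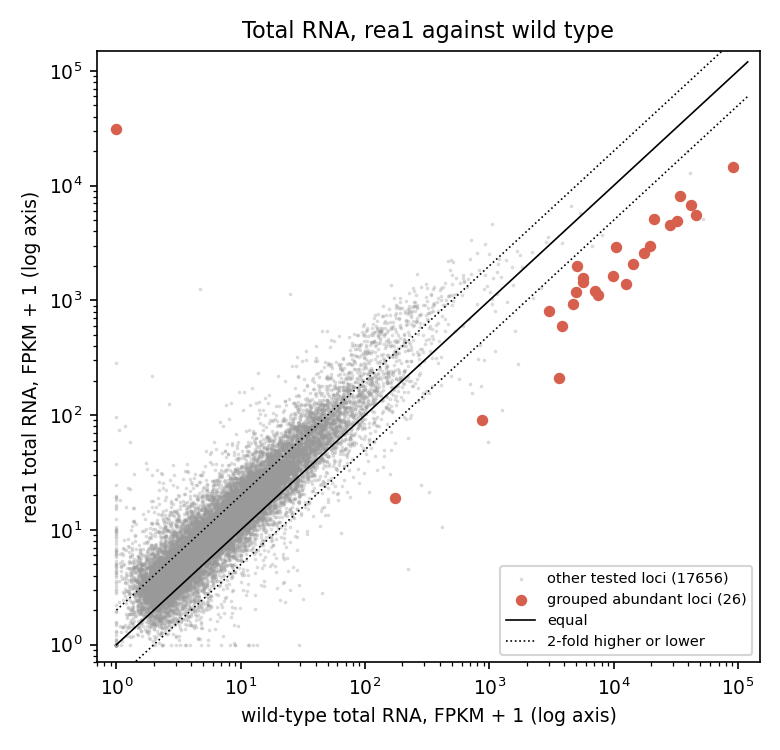
Total RNA FPKM + 1 of each tested locus in wild type (x axis, log) and rea1 (y axis, log), with the 26 grouped abundant loci in red and the other tested loci in grey. The solid line marks equal values and the dotted lines a 2-fold difference. Grey points lie mostly above the solid line and the grouped loci below the lower dotted line, apart from 1 locus listed at 0 in wild type.

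On the log2(FPKM + 1) scale, the shift was larger in more abundant classes from 1 to 1000 FPKM and below 0 above that level. Loci were classed by their mean FPKM in polysome-bound RNA, which the comparison does not use. The added 1 FPKM lowers the ratios of low loci most, so a rise among classes below 30 FPKM is not read as a larger difference. Median FPKM was 3.28 in rea1 against 1.92 in wild type at 1 to 3 FPKM, and 23.2 against 14.1 at 10 to 30 FPKM. At 1 to 3 FPKM the 4160 loci had a median log2 ratio of 0.51, and at 3 to 10 FPKM the 5497 loci had 0.59. At 10 to 30 FPKM the median was 0.66 (3929 loci), and at 30 to 100 FPKM it was 0.77 (1991 loci). It reached 0.99 between 100 and 300 FPKM (572 loci) and 1.30 between 300 and 1000 FPKM (161 loci). For the 67 loci at 1000 FPKM or more it was -0.97, with the middle 50% between -2.20 and 0.59, the widest spread of all classes. The 1305 loci under 1 FPKM on polysomes, at 0.70, passed the limit of 1 FPKM only through their total RNA values, the values compared, so nothing is read from that class.

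Loci of moderately high abundance were thus the most often higher. In the class at 300 to 1000 FPKM, 109 of 161 loci (67.7%) were higher and 7 (4.35%) lower by 2-fold or more. In the class at 100 to 300 FPKM the shares were 49.5% and 2.80%. Relative to the median locus, 35.4% of the first class and 27.8% of the second were at least 2-fold higher, where 7.26% of all tested loci were. On the same basis, 52.2% of the loci at 1000 FPKM or more were at least 2-fold lower, where 6.29% of all tested loci were. These classes are set by level alone, and the genes in them are not named. Summed over the class at 300 to 1000 FPKM, total RNA came to 131237 FPKM in rea1 against 57059.5 in wild type.

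**Figure D4:**
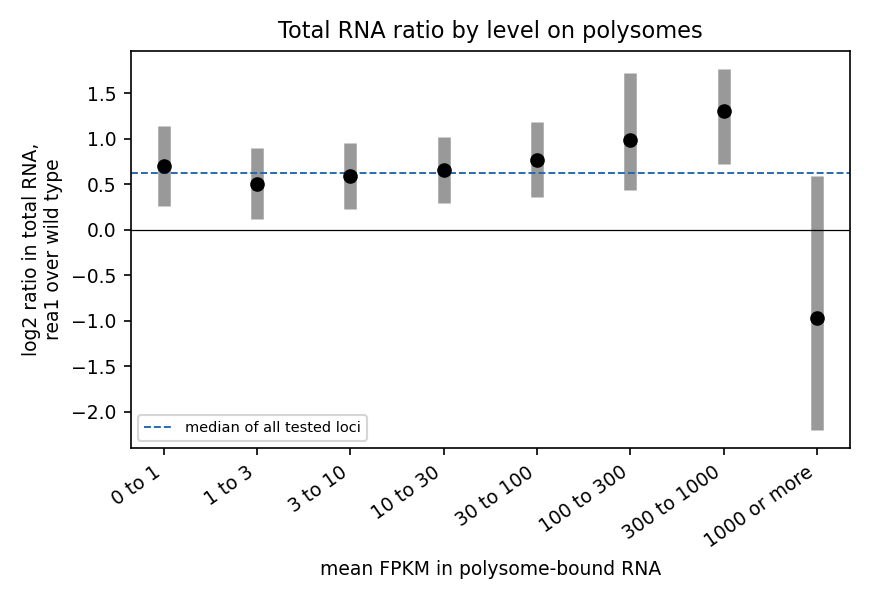
Total RNA log2 ratio, rea1 over wild type (y axis), for tested loci classed by mean FPKM in polysome-bound RNA (x axis). Points are medians over loci, bars the middle 50% of loci and the dashed line the median of all tested loci (0.62). Loci at 0 to 1 FPKM were tested only through their total RNA values. The medians run from 0.51 at 1 to 3 FPKM to 1.30 at 300 to 1000 FPKM and stand at -0.97 at 1000 FPKM or more. Ratios are of FPKM + 1, which lowers those of the low classes.

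Short loci differed more than long ones, in both directions. Under 600 bp, 36.3% of 388 tested loci were higher and 10.8% lower by 2-fold or more. From 600 to 1200 bp, 28.7% of 1366 loci were higher and 7.54% lower. From 4800 to 9600 bp, 24.1% of 4623 loci were higher and 0.606% lower. Relative to the median locus, 18.0% were higher and 19.8% lower under 600 bp, 12.2% and 15.4% from 600 to 1200 bp, and 4.85% and 3.68% from 4800 to 9600 bp. On that basis the shares of higher and of lower loci were both larger among short loci, and the contrast between the directions was smaller than as deposited. Among loci at 10 to 100 FPKM on polysomes, 6.21% of 354 loci of 600 to 1200 bp were at least 2-fold lower, against 0.634% of 1736 loci of 4800 to 9600 bp. The medians of the length classes were close, between 0.54 and 0.64. The part of counting error in the wider spread of short loci was not tested. Locus length is the span of the deposited coordinates.

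By chromosome, the shares of lower loci were uneven as deposited and nearly even relative to the median locus. As deposited, the share at least 2-fold higher lay between 24.5% (chromosome 9) and 28.1% (chromosome 4). At least 2-fold lower were 3.20% of tested loci on chromosome 4 and 2.52% on chromosome 7, which hold 4 of the 6 abundant groups, and 1.17% on chromosome 6. Chromosome 10, which holds none of the groups, was at 2.43%. The share at least 2-fold lower relative to the median locus lay between 5.38% (chromosome 8) and 6.93% (chromosome 1), with 6.51% on chromosome 4 and 6.37% on chromosome 7. The share at least 2-fold higher lay between 6.13% (chromosome 2) and 8.45% (chromosome 6).

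Neighbouring loci that differed in the same direction were followed along the chromosomes, over 17061 tested loci with distinct coordinates. Of the loci at least 2-fold lower, 10.2% were followed by another such locus, where 1.95% of these loci were lower. Runs of 3 or more lower loci numbered 5. As deposited they held 27 loci in all, and each of the 5 lay at one of the abundant groups. The longest were 8 loci at 5.08 to 5.15 Mb of chromosome 4, 7 at 18.76 to 18.96 Mb of chromosome 7 and 6 at 5.52 to 5.60 Mb of chromosome 4. The excess was smaller relative to the median locus, with 9.45% of lower loci followed by another where 6.32% were lower. On that basis there were 9 runs of 3 or more, the longest being 11 loci at 5.08 to 5.18 Mb of chromosome 4. Of these 9, 5 lay at the abundant groups. The other 4 held 3 loci each and lay at 290.38 Mb of chromosome 1, 49.93 Mb of chromosome 5, 140.84 Mb of chromosome 6 and 102.44 Mb of chromosome 9.

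Runs of higher loci were more numerous, as were higher loci themselves. As deposited, 243 runs of 3 or more held 826 loci, and 17 of these runs held 5 or more. Of the loci at least 2-fold higher, 28.5% were followed by another, where 26.3% of these loci were higher. The longest run held 8 loci, at 189.27 to 189.71 Mb of chromosome 3, with 697 FPKM in rea1 against 221 in wild type in sum. It was followed by a run of 7 at 52.42 to 53.70 Mb of chromosome 4, with 523 and 161 FPKM. Relative to the median locus, 10.2% of higher loci were followed by another, where 7.29% were higher. On that basis 18 runs of 3 or more were found and none had more than 4. Those with 4 lay at 90.21 to 90.70 Mb of chromosome 6, with 2074 FPKM in rea1 against 373 in wild type in sum, and at 83.59 to 84.13 Mb of chromosome 8, with 1124 and 235 FPKM. All 8 loci of these 2 runs were above a ratio of 1 in polysome-bound RNA, where 72% of all tested loci were.

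The widest ratios were taken among loci that averaged 5 FPKM or more and were above 0 in all 4 libraries. Highest was the locus at 201981099 to 201981984 of chromosome 3, at 1253 FPKM in rea1 against 3.69 in wild type (log2 ratio 8.06). It ranked 78 of all loci in rea1 total RNA and 11383 in wild type. Next was the locus at 150307605 to 150310106 of chromosome 7, at 217 FPKM in rea1 against 0.943 in wild type (6.81). Both were also higher in polysome-bound RNA of rea1, at 307 against 2.84 FPKM and 23.8 against 1.39 FPKM.

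Lowest was the locus at 132250530 to 132252119 of chromosome 8, at 3.54 FPKM in rea1 against 219 in wild type (-5.60). It was followed by the 49574 bp locus at 162047479 to 162097052 of chromosome 1, at 9.63 FPKM in rea1 against 415 in wild type (-5.29), which lies beside an abundant group. On polysomes the first was at 20.7 FPKM in rea1 against 190 in wild type, the second at 5.34 and 17.6 FPKM. Both were thus lower there as well, by smaller factors, at loci chosen for their total RNA ratios.

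The 25 highest ratios ran from 3.59 to 8.06 and the 25 lowest from -5.60 to -2.68 on the log2 scale. Both sets came from loci that averaged 5 FPKM or more and were above 0 in all 4 libraries. The shares beside them are over all tested loci, a wider pool with lower values. Among the 25 highest, 23 were above a ratio of 1 on polysomes, where 72% of tested loci were. At least 2-fold higher there were 16 of the 25, where 3.96% of tested loci were. None of the 25 belonged to the abundant groups, and wild-type values ranged from 0.0499 to 43.7 FPKM. Among the 25 lowest, 22 were below a ratio of 1 on polysomes, where 27.6% of tested loci were. At least 2-fold lower there were 17 of the 25, where 1.34% of tested loci were. Of the 25 lowest, 10 belonged to the abundant groups, which hold 26 of the 17682 tested loci. On chromosome 4, which holds 1781 of the tested loci, lay 11 of the 25 lowest and 7 of the 25 highest. Some of the 11 belong to the abundant groups of that chromosome, so these counts overlap. The median length of the 25 lowest was 1271 bp, against 2077 bp for the 25 highest.

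Loci listed at 0 in one library were mostly low in the other. Above 0 in rea1 alone were 2292 loci, with a median of 0.140 FPKM, and above 0 in wild type alone were 1370, with a median of 0.116 FPKM. At 5 FPKM or more the numbers were 31 and 9. Apart from the chromosome 7 locus at 31354 FPKM, the highest value of the 31 was 284 FPKM. Of the 31, 22 were under 600 bp long, where 3.17% of all loci were, and on polysomes 17 were above 0 in rea1, with 8 in wild type. The part of depth in these zeros was not tested, since the depths are unknown.

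The other RNA fraction gave a separate readout of the same loci. On polysomes the median log2 ratio was 0.24 over all tested loci. It was -1.06 for the 27 loci at least 8-fold lower in total RNA, -0.71 for the 53 loci 4 to 8-fold lower and -0.43 for the 258 loci 2 to 4-fold lower. It was 0.44 for the 4053 loci 2 to 4-fold higher, 0.53 for the 495 loci 4 to 8-fold higher and 0.63 for the 99 loci at least 8-fold higher. The medians thus followed the order of the total RNA classes and were smaller than the differences in total RNA. The classes were cut on the total RNA ratios, which favours wide values there, so the smaller size on polysomes is a description.

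The wider the difference in total RNA, the more often the locus differed on polysomes. At least 2-fold lower on polysomes were 55.6% of the loci at least 8-fold lower in total RNA and 19.4% of those 2 to 4-fold lower, against 1.34% of all tested loci. At least 2-fold higher on polysomes were 39.4% of the loci at least 8-fold higher in total RNA and 7.50% of those 2 to 4-fold higher, against 3.96% of all. Of the 338 lower loci, 257 (76.0%) were below a ratio of 1 on polysomes, where 27.6% of all tested loci were. Of the 4647 higher loci, 3949 (85.0%) were above it, not far from the 72% of all tested loci. The lower loci outside the 6 groups, 313 in number, had a median of -0.45 there. Both fractions of a genotype may come from the same tissue powder, so a difference between the tissue samples would enter both.

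**Figure D5:**
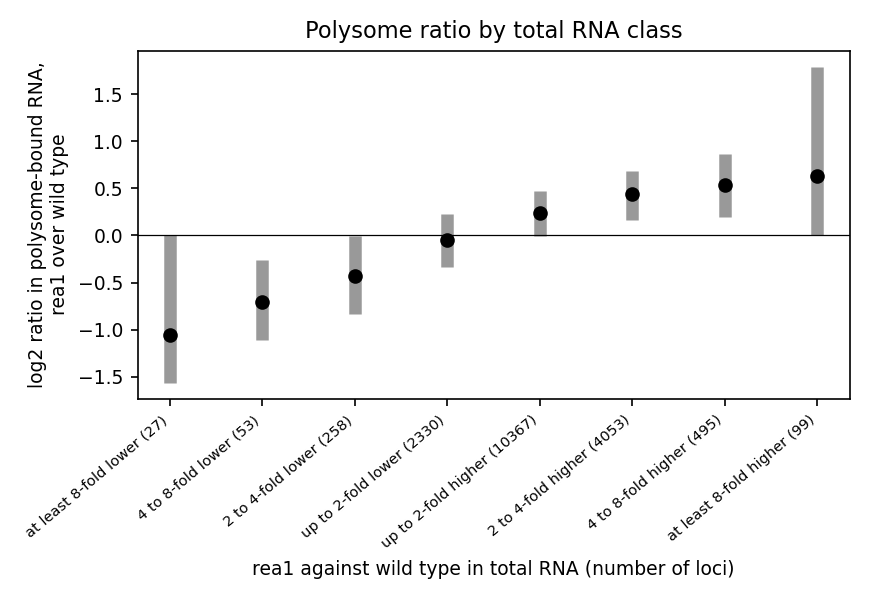
Polysome-bound RNA log2 ratio, rea1 over wild type (y axis), for tested loci classed by their difference in total RNA (x axis, number of loci in brackets). Points are medians over loci and bars the middle 50%. The medians run from -1.06 at the lowest total RNA class (8-fold or more) to 0.63 at the highest.

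A ranking within each library does not depend on scaling. Of the 100 most abundant loci of each library, 72 were in both. The 28 that were in the list of rea1 alone had medians of 1257 FPKM in rea1 and 325 FPKM in wild type, and a median length of 2123 bp. The 28 that were in the list of wild type alone had medians of 474 FPKM in rea1 and 888 FPKM in wild type, and a median length of 1108 bp. Among the first 28, 1 belonged to the abundant groups, the locus listed at 0 in wild type, and among the second 28, 5 did. On polysomes the median log2 ratio was 0.58 for the first set and -0.50 for the second. The loci in the wild-type list alone thus had the shorter median length. These lists were cut on the values compared, and their levels are a description.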

How the data were processed

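The authors deposited 1 table of FPKM per library, which per the file headers gives a locus by chromosome and coordinates and its FPKM. Bowtie 0.12.2 and B73 RefGen_v3 were used, per the submitters' processing notes. The program that computed FPKM, the annotation, the exact denominator and any pooling of the triplicates that the design text speaks of were not stated there, so each table was treated as 1 library. The 2 total RNA tables were joined by row order and locus. Starts were taken as counted from 0 and are printed counted from 1. Of the 29642 entries, 1595 share their coordinates with another entry. Gene names were not joined, the gene table at hand having coordinates of a different assembly.

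Ratios are log2(FPKM + 1) in rea1 minus wild type, which understates differences of low loci, for loci that averaged 1 FPKM or more across the 4 libraries. A value relative to the median locus is that ratio minus the median over these loci. Where a fold is given for a single locus or a sum, it is the ratio of FPKM without a pseudocount. Named by rule were the 10 most abundant loci of each total RNA library, the 2 highest and the 2 lowest ratios among loci that averaged 5 FPKM or more and were above 0 in all 4 libraries, the groups of abundant loci and the runs of neighbours. Single neighbours of the groups were named after their values were seen. The members, lists and groups were chosen with earlier results of these data known. Alternatives were pseudocounts of 0.1 and 5, other filters, 3 scalings, shared coordinates left out and loci at 0 left out. The code for counting and scaling was run on data simulated without noise from the wild-type total RNA values. That run checks the code and not the spread of these data. Python 3.11.15, numpy 2.4.6, pandas 2.3.3 and matplotlib 3.10.9 were used.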

Additional observations from a re-analysis of the deposited data

Results flagged for a closer look

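As deposited, 3 of the loci named by rule had a log2 ratio in total RNA of opposite sign to that in polysome-bound RNA, with at least 0.1 on each side. These differences between the fractions rest on 1 library each and were not tested. The locus at 120233940 to 120236057 of chromosome 7 was at 31354.4 FPKM in rea1 total RNA, while wild type had it listed at 0, and its log2 ratio on polysomes was -0.26. The locus at 44541825 to 44542774 of chromosome 6 had a log2 ratio of -0.97 in total RNA and 0.15 on polysomes, where it was at 52920.4 FPKM in rea1 and 47789.8 FPKM in wild type, the most abundant locus of both polysome libraries. The locus at 178503667 to 178505233 of chromosome 1 had a log2 ratio of 0.10 in total RNA and -0.77 on polysomes, at 2247 FPKM in rea1 and 3841 FPKM in wild type. The signs depended on the scaling. Relative to the median locus of each fraction, the chromosome 6 locus was at -1.59 in total RNA and -0.097 on polysomes. The chromosome 1 locus was at -0.52 and -1.02. On that basis only the chromosome 7 locus, whose 0 can be a failed estimate, kept opposite signs.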

How the results depend on the processing

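No replicate could be left out, and no paired analysis was possible because each group has 1 library. The counts of 4647 higher and 338 lower loci depended most on the scaling. They were 1171 and 1020 after median-of-ratios scaling, 1171 and 1018 after a trimmed mean, and 909 and 1444 with equal sums without the 50 most abundant loci. The median log2 ratio of 0.62 became -0.0078, -0.0073 and -0.15 under these, of which the first 2 bring it near 0 by design. A pseudocount of 5 gave 2293 higher and 161 lower with a median of 0.39. A pseudocount of 0.1 gave 510 lower and a median of 0.73. A mean of at least 10 FPKM gave 2419 and 152 with a median of 0.73, and no filter a median of 0.33. Relative to the median locus, a basis added after the data were seen, the counts of 1283 higher and 1113 lower became 572 and 485 with a mean of at least 10 FPKM, where fewer loci are tested. There were 327 lower with a pseudocount of 5 and 2444 higher with no filter. The log2 ratio of the sum of the 26 grouped loci, -2.03 as deposited, was -2.78 under median-of-ratios scaling and under the trimmed mean and -2.95 under the third scaling. It was -2.54 without the chromosome 7 locus listed at 0 in wild type, which is also its value among loci above 0 in both total RNA libraries. Only there did a group turn: the sum at 120.21 Mb of chromosome 7 went from 1.73 to -2.61. The median polysome ratio of the higher loci, 0.45, was 0.26 under the first 2 scalings and 0.21 under the third, and that of the lower loci, -0.49, was -0.65 with a mean of at least 10 FPKM. Where no value above shows a cause, the cause was not tested.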

Other observations

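Loci of the organelle genomes stayed low in both total RNA libraries. The 51 mitochondrial loci summed to 30.8 FPKM in rea1 and 19.0 FPKM in wild type, a ratio of 1.62 without a pseudocount. The 1.54-fold of the median tested locus is a median of ratios of FPKM + 1, an unlike measure. Above 0 were 39 of the mitochondrial loci in rea1 and 31 in wild type, and 1 reached the mean of 1 FPKM. The 22 plastid loci summed to 1.63 FPKM in rea1 and 0.150 FPKM in wild type, with 11 and 3 above 0. At such low values and unknown depth, no difference is read from these sums.

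Entries that share their coordinates with another entry were higher about as often as all tested loci and lower somewhat less often. Of 1009 such tested entries, 27.7% were higher and 1.29%, or 13, lower in rea1 by 2-fold or more. Over all tested loci the shares were 26.3% and 1.91%. At 340 coordinates 2 or more entries were tested, and at 1 of these 1 entry was 2-fold or more higher and another 2-fold or more lower.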
